A study of Rattus norvegicus with 23 samples.

Results

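Ngfr, Gfap, S100b, Jun and Egr2 are 5 genes by which Schwann cells, the glia of peripheral nerve, are followed after injury. They were taken from the count table by identifier, a rule that uses no threshold on their values, but were proposed with earlier results of these data known. All 5 were found among its 32545 gene identifiers (Ngfr is ENSRNOG00000005392, Gfap ENSRNOG00000002919, S100b ENSRNOG00000001295, Jun ENSRNOG00000026293 and Egr2 ENSRNOG00000000640). All 5 passed the filter on low counts in both models used below. RNA-seq counts were available for 23 libraries from wild-type adult female rats in 7 groups. The groups comprised untreated healthy median nerve (n = 5), healthy adductor muscle (n = 3) and healthy epigastric vein (n = 3), all at day 0. The other 4 groups were median nerves repaired after a cut, labelled EV and MIV, at day 3 and day 7 (n = 3 each). The series design describes an 8 mm gap in the nerve closed by a graft of 10 mm, named muscle-in-vein, in which muscle fibres lie inside a vein. The treatment label names MIV for the MIV libraries only, and the meaning of EV is not spelled out in the labels. The labels do not say whether replicates are different animals. The p-values therefore reflect the spread of these libraries only, and part of it may be technical.

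After a nerve is cut, myelinating Schwann cells beyond the injury are known to leave the myelin programme and enter a repair state. Jun, a transcription factor of the AP-1 family, is required for that switch, whereas Egr2 (Krox20), a zinc finger transcription factor, drives myelination and is lost from denervated cells. Ngfr, the p75 receptor for neurotrophins, and Gfap, an intermediate filament protein, mark immature, non-myelinating and repair Schwann cells. S100b, a calcium-binding protein, marks Schwann cells in general and is also found in other cell types such as adipocytes. Jun and Egr2 are also immediate early genes that many cell types induce under stress.

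Bases before the start sites of 3 of the genes, Gfap, S100b and Egr2, are shown as a description (RefSeq, assembly GRCr8, table not complete). The stretches differ in length and position, so they are not compared letter by letter. All lie on the minus strand and are written 5′ to 3′, and capitals mark a CArG box, the site of serum response factor. Gfap is shown for chr10:88361662-88361911, the 250 bases before the start. S100b is shown for chr20:12381160-12381331, from 79 to 250 bases before it. Egr2 is shown for chr20:21054505-21054534, from 64 to 93 bases before it, a stretch placed around its CArG box. The gene models of S100b and Egr2 reach upstream of the start sites used. At least part of their windows of 250 bases therefore lies inside the gene model.
Gfap: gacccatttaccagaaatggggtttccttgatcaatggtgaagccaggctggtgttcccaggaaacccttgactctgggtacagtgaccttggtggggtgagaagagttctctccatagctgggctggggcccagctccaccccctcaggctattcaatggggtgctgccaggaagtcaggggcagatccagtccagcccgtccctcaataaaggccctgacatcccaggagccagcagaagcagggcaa
S100b: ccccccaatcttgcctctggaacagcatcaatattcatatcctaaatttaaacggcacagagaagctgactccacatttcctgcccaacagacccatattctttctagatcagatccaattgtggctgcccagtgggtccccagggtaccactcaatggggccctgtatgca
Egr2: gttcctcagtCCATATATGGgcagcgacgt
The AP-1 letters TGANTCA, searched on both strands, were in none of the 3 windows of 250 bases, and 6.34% of the 33469 windows of that length in the table held them. The CArG box, chosen after the sequences had been seen, was in the Egr2 window and in 501 of all windows. It was not in those of Gfap and S100b, and these matches describe letters only. Ngfr and Jun are named only.

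Library totals ranged from 12504035 to 17314324 counts. Pearson correlations of log2 CPM between replicates, across genes, were lowest among the MIV day 7 libraries (0.874 to 0.952) and at least 0.952 in each other group. Genes enriched in healthy muscle took 17.9% to 37.4% of the counts in the MIV day 7 libraries, 16.1% to 17.1% in the EV day 7 libraries and 14.0% to 17.1% in healthy nerve. Genes enriched in healthy nerve, the 5 genes left out, took 24.7% to 28.4% of the counts in healthy nerve and 4.18% to 6.596% in the 12 repaired libraries. In bulk RNA, fewer cells of a type and less RNA per cell cannot be told apart. The identifiers of all other genes could not be paired with symbols here, so pathway and cell type marker lists were not measured.

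Against healthy nerve, 3 of the 5 genes fell in most or all repaired groups and none rose in all of them. Tests are edgeR's quasi-likelihood test with Benjamini-Hochberg adjustment over all 15954 genes and a threshold of 0.05. At day 3, Ngfr, Gfap, S100b and Egr2 fell and Jun was not called in the EV nerves, where 60.7% of all genes tested were called. The same 4 genes fell and Jun was not called in the MIV nerves at day 3, where 61.4% of all genes were called. At day 7, Gfap and S100b fell and Ngfr and Jun rose in the EV nerves (48% of all genes called), and Gfap, S100b and Egr2 fell in the MIV nerves (54.5% of all genes called). With so many genes called, counts of 3 or 4 among 5 are not set apart from the background, and the weight lies on the sizes below. The median log2 fold change of the 5 genes was -2.83, -3.22, -1.43 and -3.10 (EV day 3, MIV day 3, EV day 7, MIV day 7), beside medians of -0.01, 0.01, 0.00 and 0.05 over all genes. Ngfr, Gfap, S100b and Egr2 are themselves among the 1485 genes enriched in healthy nerve. The medians of those 1485 genes were -2.81, -2.68, -2.28 and -2.33 in the same order, so a fall of this size is not particular to the 5. The 4 comparisons share the healthy nerve libraries. A repair state with Ngfr, Gfap and Jun all above healthy nerve was not seen in these tissues as a whole, so the genes are described one by one and not as a repair signature.

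**Figure D1:**
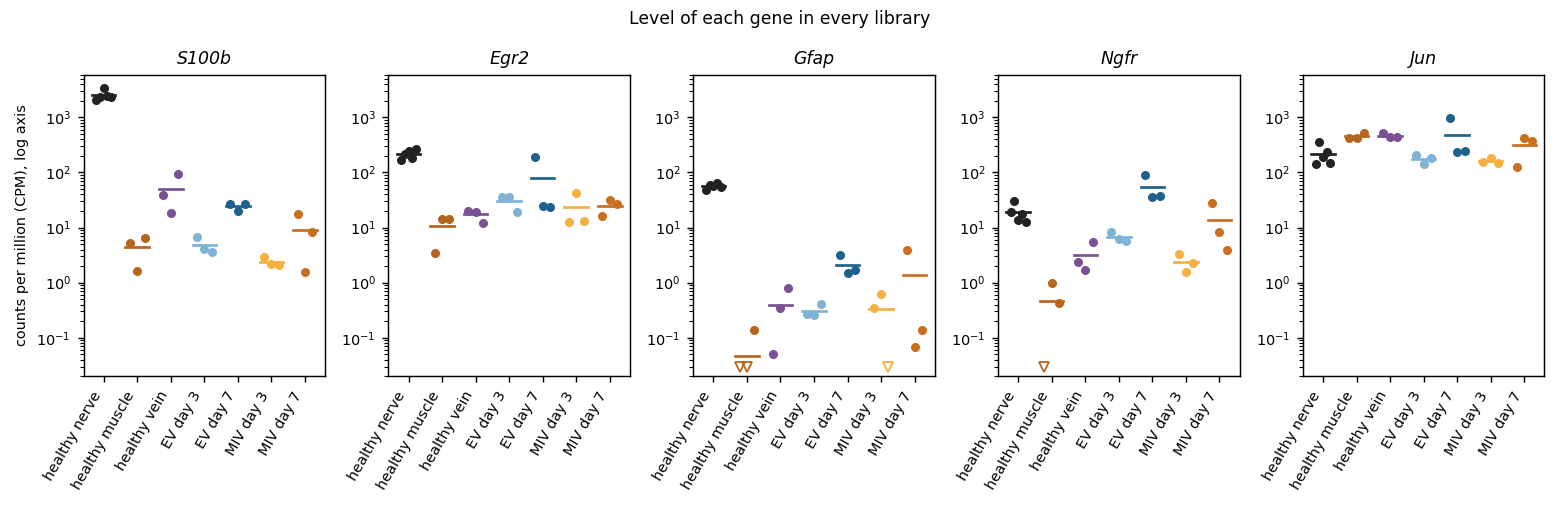
Level of each gene in every library. The vertical axis is CPM, the count scaled to a common library size, on a log scale. Points are libraries, bars are group means, and open triangles at the bottom are libraries with 0 counts. S100b stood at 2094 CPM or more in every healthy nerve library and at 93.0 CPM or less in every other library.

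S100b, the general Schwann cell marker, showed the widest range of the 5 genes in CPM. As a fold from healthy nerve to the lowest group, it was 1044 for S100b (MIV day 3). For Gfap it was 1207 (healthy muscle, 0 to 1 counts). In healthy nerve it stood at 2094, 2321, 3391, 2418 and 2313 CPM (replicates 1 to 5, a mean of 2507 ± 508, SD, n = 5), where CPM is the count scaled to a common library size with the TMM factor. In EV nerves it stood at 6.80, 4.03 and 3.62 CPM at day 3 and at 26.6, 20.1 and 26.6 CPM at day 7. In MIV nerves it stood at 2.87, 2.23 and 2.11 CPM at day 3 and at 17.6, 1.56 and 8.23 CPM at day 7. Every repaired library lay far below every healthy nerve library, and MIV day 7 replicate 2, with 23 counts, was the lowest of the repaired libraries. The log2 fold change against nerve was -9.02 ± 0.81 (SE) in EV and -10.02 ± 0.84 in MIV at day 3, and -6.68 ± 0.72 in EV and -8.10 ± 0.77 in MIV at day 7 (edgeR adjusted p = 2.13e-08, 9.76e-09, 4.95e-07 and 1.04e-07). Only 115 of the 15954 genes had a lower fold change than S100b in EV at day 3 and 56 in MIV at day 3, then 174 and 72 at day 7. Among the 1485 genes enriched in healthy nerve, whose medians were -2.81 and -2.68 at day 3 and -2.28 and -2.33 at day 7 (EV, then MIV), S100b was lower than all but 97, 53, 145 and 67 of them. Healthy vein carried S100b at 39.3, 18.7 and 93.0 CPM and healthy muscle at 5.24, 1.63 and 6.48 CPM. The vein was therefore second in the order of levels and overlapped EV day 7, which lay above the highest MIV day 7 library. MIV day 7, EV day 3, healthy muscle and MIV day 3 followed, each overlapping the next.

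Gfap, the intermediate filament protein, also fell in all 4 repaired groups. In healthy nerve it stood at 48.0, 58.7, 57.2, 64.4 and 55.0 CPM (56.6 ± 5.96, SD, n = 5). At day 3 it stood at 0.267, 0.256 and 0.415 CPM in EV, which is 4, 4 and 7 counts, and at 0.352, 0.629 and 0 CPM in MIV, which is 7, 11 and 0 counts. The count of 0 allows up to 0.144 CPM (3 counts), from counting error alone. At day 7 it stood at 3.18, 1.48 and 1.69 CPM in EV and at 3.87, 0.0679 and 0.141 CPM in MIV, where replicate 1 held 68 counts and replicates 2 and 3 held 1 and 2. No repaired library came near healthy nerve, and the MIV day 7 libraries spanned a 57.0-fold range. The log2 fold change against nerve was -7.46 ± 0.998 in EV and -7.45 ± 0.99 in MIV at day 3, and -4.74 ± 0.82 and -5.32 ± 0.85 at day 7 (SE, edgeR adjusted p = 3.39e-06, 2.90e-06, 0.000103 and 3.79e-05). Without MIV day 7 replicate 1 the MIV day 7 value was -8.98. Healthy vein held 1 to 15 counts of Gfap per library and healthy muscle 0 to 1. Below healthy nerve, the ranges of EV day 7, MIV day 7, healthy vein, MIV day 3 and EV day 3 each overlapped the next.

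Egr2, the myelination factor, was highest in healthy nerve at 167, 217, 244, 183 and 264 CPM (215 ± 40.6, SD, n = 5). In EV nerves it stood at 35.6, 36.2 and 19.0 CPM at day 3 and at 191, 24.8 and 23.6 CPM at day 7. In MIV nerves it stood at 12.8, 43.3 and 13.4 CPM at day 3 and at 16.5, 32.3 and 26.6 CPM at day 7. EV day 7 replicate 1 alone lay within the healthy nerve range, and the other 11 repaired libraries lay below it. The log2 fold change against nerve was -2.83 ± 0.66 in EV and -3.22 ± 0.67 in MIV at day 3, and -3.10 ± 0.67 in MIV at day 7 (SE, edgeR adjusted p = 0.00104, 0.000399 and 0.000680). In EV at day 7 it was -1.43 ± 0.61 and not called (95% interval -2.70 to -0.16, edgeR adjusted p = 0.0592). Without EV day 7 replicate 1 it was -3.15 and called lower (edgeR adjusted p = 0.000216), and with all libraries DESeq2 and voom called it lower (adjusted p = 0.0252 and 0.0103). Of the 1485 nerve-enriched genes, 49.8% had a lower fold change than Egr2 in EV and 43.1% in MIV at day 3, and 67.5% and 37.8% at day 7. Healthy vein stood at 20.3, 19.5 and 12.1 CPM and healthy muscle at 3.43, 14.0 and 14.1 CPM, and each group overlapped the next in the order of means.

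Ngfr, the p75 neurotrophin receptor, was called below healthy nerve in some repaired groups and above it in another, which held for no other gene of the 5. In healthy nerve it stood at 18.9, 31.0, 13.8, 17.9 and 12.4 CPM (18.8 ± 7.32, SD, n = 5). In EV nerves it stood at 8.46, 6.26 and 5.75 CPM at day 3, below every healthy nerve library, and at 91.3, 36.3 and 37.8 CPM at day 7, above every one of them. In MIV nerves it stood at 3.27, 1.54 and 2.30 CPM at day 3, again below all healthy nerve libraries, and at 28.5, 8.21 and 3.94 CPM at day 7, which overlapped them. EV thus lay above MIV at each day with no overlap between the libraries, but the share of all genes without overlap was not computed. The log2 fold change against nerve was -1.46 ± 0.56 in EV and -2.98 ± 0.62 in MIV at day 3, and 1.55 ± 0.51 in EV at day 7 (SE, edgeR adjusted p = 0.0313, 0.000384 and 0.0175). In MIV at day 7 it was -0.47 ± 0.54 and not called (95% interval -1.59 to 0.65, edgeR adjusted p = 0.476), and without MIV day 7 replicate 1 it was -1.63 and called lower (adjusted p = 0.0194). The EV day 7 rise was 0.98 and not called without EV day 7 replicate 1 (adjusted p = 0.179), and the EV day 3 fall was not called without healthy nerve replicate 2 (adjusted p = 0.0771), EV day 3 replicate 2 (0.0891) or EV day 3 replicate 3 (0.0975). At EV day 7, 98.0% of the 1485 nerve-enriched genes had a lower fold change than Ngfr. Healthy vein stood at 2.38, 1.67 and 5.38 CPM and overlapped MIV day 3, and healthy muscle was lowest with 0, 6 and 3 counts.

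Jun, the AP-1 factor, was not called below healthy nerve in any repaired group. In healthy nerve it stood at 141, 351, 194, 239 and 147 CPM (214 ± 85.7, SD, n = 5). In EV nerves it stood at 208, 142 and 186 CPM at day 3 and at 960, 231 and 248 CPM at day 7. In MIV nerves it stood at 154, 187 and 151 CPM at day 3 and at 127, 421 and 380 CPM at day 7. All day 3 libraries lay inside the healthy nerve range, and EV day 7 replicate 1 was the highest of the 23 libraries. At day 3 the log2 fold change was -0.26 ± 0.42 in EV and -0.39 ± 0.42 in MIV (SE, 95% intervals -1.15 to 0.62 and -1.28 to 0.50, edgeR adjusted p = 0.610 and 0.443). At day 7 it was 1.16 ± 0.41 in EV (edgeR adjusted p = 0.0250) and 0.53 ± 0.41 in MIV (95% interval -0.34 to 1.39, adjusted p = 0.291). The EV day 7 rise was 0.16 without EV day 7 replicate 1 (adjusted p = 0.753), and it also missed the threshold without healthy nerve replicate 1 (0.0585) or replicate 5 (0.0567), or with only the groups compared (0.0952). Jun was also high in the healthy graft tissues: healthy vein stood at 519, 443 and 435 CPM and healthy muscle at 416, 415 and 521 CPM, above every healthy nerve library. Each group again overlapped the next in the order of means.

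**Figure D2:**
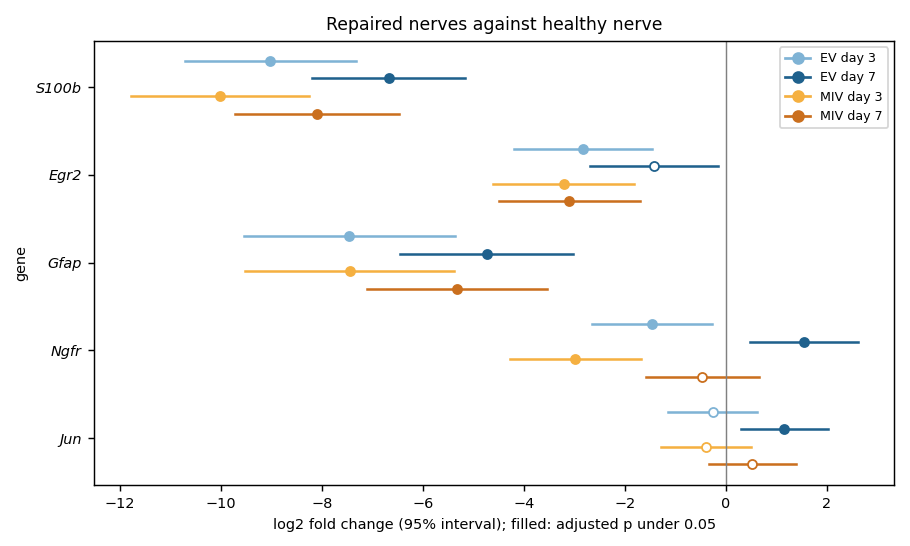
Log2 fold change of each gene in the 4 repaired groups against healthy nerve (horizontal axis, bars are 95% intervals, filled points have an adjusted p under 0.05). S100b and Gfap lie below 0 in all 4 groups, and Ngfr lies at -2.98 in MIV day 3 and at 1.55 in EV day 7.

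EV day 7 replicate 1 stood apart from its group in Jun and Egr2 in particular. Its Jun level was 3.87 times, its Egr2 level 7.72 times and its Ngfr level 2.42 times that of the next EV day 7 library, whereas its S100b level was 1.001 times that of replicate 3. Of 9319 genes with a group mean of at least 10 CPM, 49 (0.526%) were over 3-fold above both other libraries in this replicate. Its share of muscle-enriched counts, 17.0%, lay between those of the other EV day 7 libraries. In the MIV day 7 group, replicate 1 held 27.5 times the Gfap, 3.47 times the Ngfr and 2.14 times the S100b of the next library, but the lowest Jun and Egr2. Replicate 2 held 5.27-fold less S100b than the next lowest library. Among the 9563 genes with a group mean of at least 10 CPM, 31 (0.324%), 380 (3.97%) and 122 (1.28%) were over 3-fold above both others in replicates 1, 2 and 3. Those over 3-fold below both others numbered 39 (0.408%), 390 (4.08%) and 67 (0.701%). Ngfr is among the 9563 genes, but Gfap and S100b, with group means of 1.36 and 9.12 CPM, are not. The nerve-enriched share was 5.89%, 4.62% and 4.18% and the muscle-enriched share 24.8%, 17.9% and 37.4% in replicates 1, 2 and 3. The part of these shares in the spread of the 5 genes was not tested.

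The healthy vein and muscle were compared with healthy nerve to see which of the genes the graft tissues carry. In muscle, 4 genes were lower than in nerve and Jun was higher (67.3% of all genes called), and in vein the same 4 were lower and Jun was higher (40.3% of all genes called). Jun stood 1.07 ± 0.41 log2 units higher in muscle and 1.12 ± 0.41 higher in vein (SE, edgeR adjusted p = 0.0270 and 0.0358). These Jun calls were lost in 7 and 8 of 15 alternative settings, among them the omission of any muscle or vein library or of healthy nerve replicate 1 or 5 (also of replicate 3 for vein), with adjusted p up to 0.110 and 0.145. The log2 fold change of vein against nerve was -5.64 ± 0.68 for S100b and -3.64 ± 0.69 for Egr2 (SE, edgeR adjusted p = 2.35e-06 and 0.000307).

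The repaired nerves were also compared with these graft tissues. Against healthy vein at day 3, S100b and Jun were lower in EV (log2 fold change -3.39 and -1.38, edgeR adjusted p = 0.000232 and 0.0207; 52.3% of all genes called) and in MIV (-4.39 and -1.51, adjusted p = 2.66e-05 and 0.0122; 53.9% called). The EV call for Jun was lost without healthy vein replicate 1 or EV day 3 replicate 2 (adjusted p = 0.0538 and 0.0763). At day 7, Ngfr was above vein in EV by 4.12 ± 0.67 and in MIV by 2.10 ± 0.63 log2 units (SE, edgeR adjusted p = 0.000175 and 0.0108), where 28.5% and 45.9% of all genes were called. The MIV value was 0.94 without MIV day 7 replicate 1 (adjusted p = 0.186) and missed the threshold without healthy vein replicate 2 (0.0525). Egr2 was also above vein in EV at day 7 (2.21, adjusted p = 0.0195), a call that was lost without EV day 7 replicate 1 (0.48, adjusted p = 0.542) or without any 1 vein library. S100b was below vein in MIV at day 7 (-2.46, adjusted p = 0.00319). Against healthy muscle, Ngfr was higher in MIV by 2.30 ± 0.92 at day 3 and 4.81 ± 0.86 at day 7 (SE, edgeR adjusted p = 0.0344 and 7.79e-05; 66.4% and 66.1% of all genes called). Jun was lower than muscle in MIV at day 3 (-1.46, adjusted p = 0.0114). The day 3 Ngfr call was lost without healthy muscle replicate 1 or 3 or MIV day 3 replicate 1 or 3 (adjusted p from 0.0511 to 0.111). Gfap in MIV at day 7 was called above muscle (adjusted p = 0.0311) on 68, 1 and 2 counts against 0, 0 and 1, a call lost without MIV day 7 replicate 1 (adjusted p = 0.715) or any 1 muscle library.

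From day 3 to day 7, Ngfr rose in both series. The change was tested in the 12 repaired libraries (15036 genes). In EV, Ngfr rose by 3.02 ± 0.67 and S100b by 2.35 ± 0.65 log2 units (SE, edgeR adjusted p = 0.0126 and 0.0296). These were 2 calls among the 5 genes, beside 19.6% of all genes called, and 319 and 615 of the 15036 genes had a higher fold change. Neither gene overlapped between days, but the share of all genes without overlap was not computed. The values of Gfap (2.74 ± 1.34) and Jun (1.44 ± 0.56), also without overlap between days, did not pass (adjusted p = 0.174 and 0.0957). Jun was called by DESeq2 and voom (adjusted p = 0.0339 and 0.0243) and with all 23 libraries (0.0313). Gfap was called with only the groups compared (0.0102) and with all 23 libraries (0.0465). The Egr2 value was 1.41 ± 0.79 (adjusted p = 0.233) and -0.31 without EV day 7 replicate 1. In MIV, Ngfr rose by 2.53 ± 0.68 (SE, edgeR adjusted p = 0.0320), the only call among the 5 beside 15.5% of all genes. The S100b value was 1.96 ± 0.65 (95% interval 0.52 to 3.40, adjusted p = 0.0656), and it was called without MIV day 7 replicate 2 (2.46, adjusted p = 0.00191). The values were 2.11 ± 1.31 for Gfap, 0.92 ± 0.55 for Jun and 0.12 ± 0.78 for Egr2 (adjusted p = 0.292, 0.276 and 0.936), and -1.56 for Gfap without MIV day 7 replicate 1. The EV call for Ngfr was lost without EV day 3 replicate 2 or 3 (adjusted p = 0.0565 and 0.0509). That for S100b was lost without EV day 3 replicate 2 or 3 or any 1 EV day 7 library (0.0542 to 0.105). The MIV call was lost without MIV day 3 replicate 2 or 3 or MIV day 7 replicate 1 (0.108 to 0.119).

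The series asks what muscle fibres do early in regeneration, and MIV was set against EV on each day for these genes. None of the 5 genes was called by edgeR at day 3 or at day 7, beside 0% of all genes at either day. At an unadjusted p under 0.05 there were 1 of the 5 at day 3 (776 of 15036 genes) and 2 at day 7 (2515 genes). DESeq2 called none of the 5 at day 3 and 1, Ngfr, at day 7 (251 and 868 genes in all), and voom in limma none at either day (30 and 414 genes). The log2 fold change of Ngfr was -1.52 ± 0.67 at day 3 and -2.01 ± 0.65 at day 7 (SE, 95% intervals -3.00 to -0.04 and -3.44 to -0.58, edgeR adjusted p = 0.959 and 0.174). In an alternative fit with the replicate number as a block within each day, a pairing the labels do not give, the day 7 Ngfr value was -2.34. That fit called Ngfr lower (edgeR adjusted p = 0.0401, with a range of 0.0291 to 0.476 over 15 alternatives). The S100b value was -1.004 ± 0.64 at day 3 and -1.40 ± 0.62 at day 7 (95% intervals -2.43 to 0.42 and -2.78 to -0.02, adjusted p = 1 and 0.292), and at each day every EV library held more S100b than every MIV library. How many of all genes separate EV from MIV in this way was not computed. For Gfap the values were 0.04 ± 1.41 and -0.60 ± 1.20, for Jun -0.13 ± 0.55 and -0.65 ± 0.55, and for Egr2 -0.39 ± 0.78 and -1.68 ± 0.80 (day 3, then day 7, adjusted p of 0.318 or more). The day 7 values of Jun and Egr2 went to 0.35 and 0.04 without EV day 7 replicate 1.

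Over both days, a contrast that weights the days equally, no gene of the 5 was called beside 1.54% of all genes. The Ngfr value was -1.77 ± 0.46 (95% interval -2.79 to -0.74, edgeR adjusted p = 0.104), with only 95 of 15036 genes lower, and that of S100b -1.20 ± 0.45 (95% interval -2.19 to -0.21, adjusted p = 0.25). At an unadjusted p under 0.05 these were the 2 of the 5, beside 2298 of all 15036 genes. DESeq2 called Ngfr whereas voom called none of the 5 (814 and 480 genes in all). Without MIV day 7 replicate 1 edgeR called Ngfr lower (-2.37, adjusted p = 0.0194), and so did the fit with the block within each day (-1.95, adjusted p = 0.015). Over 20 alternatives the adjusted p ranged from 0.00311 to 0.249. The difference of the MIV effect between day 7 and day 3 gave no call among the 5 (0% of all genes). None of the 5 had an unadjusted p under 0.05, beside 796 of all genes. DESeq2 and voom called 0 of the 5 (17 and 0 genes in all). The difference ranged from -1.29 ± 1.11 for Egr2 to -0.40 ± 0.89 for S100b (SE).

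**Figure D3:**
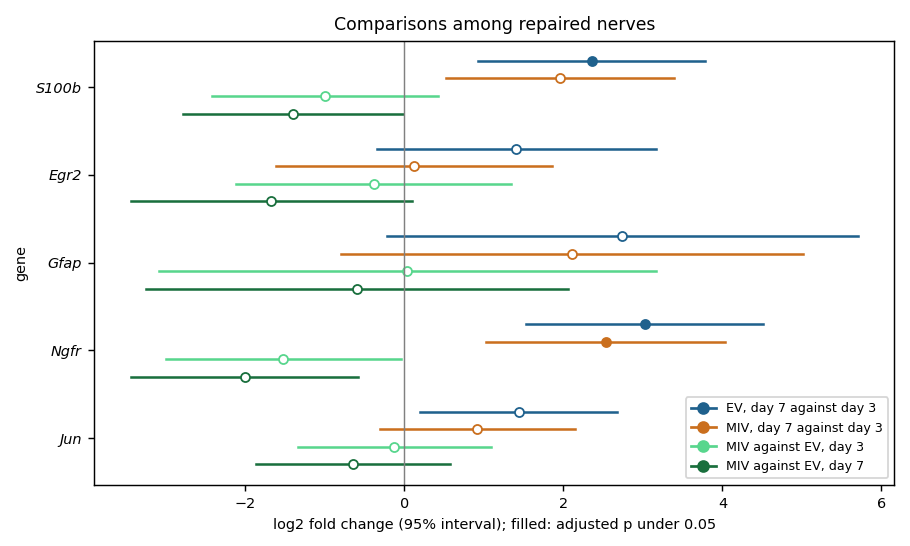
Log2 fold change of each gene from day 3 to day 7 and between MIV and EV (horizontal axis, bars are 95% intervals, filled points have an adjusted p under 0.05). Ngfr in both series and S100b in EV pass from day 3 to day 7, and no gene passes between MIV and EV.

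Ratios between 2 genes of the same library were examined because they do not depend on how libraries are scaled. They are compared across groups only, since gene length differs. The log2 ratio of Jun to Egr2 was -0.07 ± 0.61 in healthy nerve (SD, n = 5), 2.60 ± 0.66 and 2.98 ± 0.57 in EV and 3.06 ± 0.83 and 3.49 ± 0.48 in MIV (day 3 and day 7, SD, n = 3 each). Its highest healthy nerve value, 0.69, lay below its lowest repaired value, 1.97. EV day 7 replicate 1, with high levels of both genes, had the ratio 2.33, within the range of the repaired libraries. The ratio was higher still in vein (4.78 ± 0.34, SD, n = 3) and muscle (5.66 ± 1.08, SD, n = 3). The ratio of Ngfr to S100b was -7.11 ± 0.66 in healthy nerve (SD, n = 5) and between -1.06 and 2.37 in the 12 repaired libraries. The ratio of Egr2 to S100b was -3.54 ± 0.27 in healthy nerve (SD, n = 5) and between -0.17 and 4.34 in the repaired libraries, so the fall of S100b exceeded that of Egr2 in each of them. All ratios other than Jun to Egr2 are taken over S100b, so they share its fall and are not separate results. How often other pairs of genes separate from nerve was not computed. Of 20 ratios of a repaired group against healthy nerve, 18 had no overlap with nerve. Each of the 18 had a two-sided exact permutation p of 0.0357, the smallest that 3 against 5 libraries can give. Adjusted over the 40 ratio comparisons made, these came to 0.0794 and did not pass. With so few libraries no ratio could have passed, so this outcome does not speak against a difference. Even with all 20 apart from nerve, the adjusted permutation p was 0.0714 (5 in place of 0.5 added to each count). The other 2 of the 20 ratios were Gfap to S100b in MIV at day 3 and day 7 (exact permutation p = 0.214 and 0.179). With 5 in place of 0.5 added to each count they did not overlap nerve. That setting cannot decide the question, because MIV libraries with 0, 1 and 2 Gfap counts take their ratio largely from the added 5. Among repaired groups, 3 against 3 libraries cannot go below 0.1, and 2 of 20 comparisons reached it. Both were at day 3, where Ngfr to S100b was lower and Jun to S100b higher in MIV than in EV, with differences of -0.61 and 0.84 log2 units (adjusted p = 0.2 for both).

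**Figure D4:**
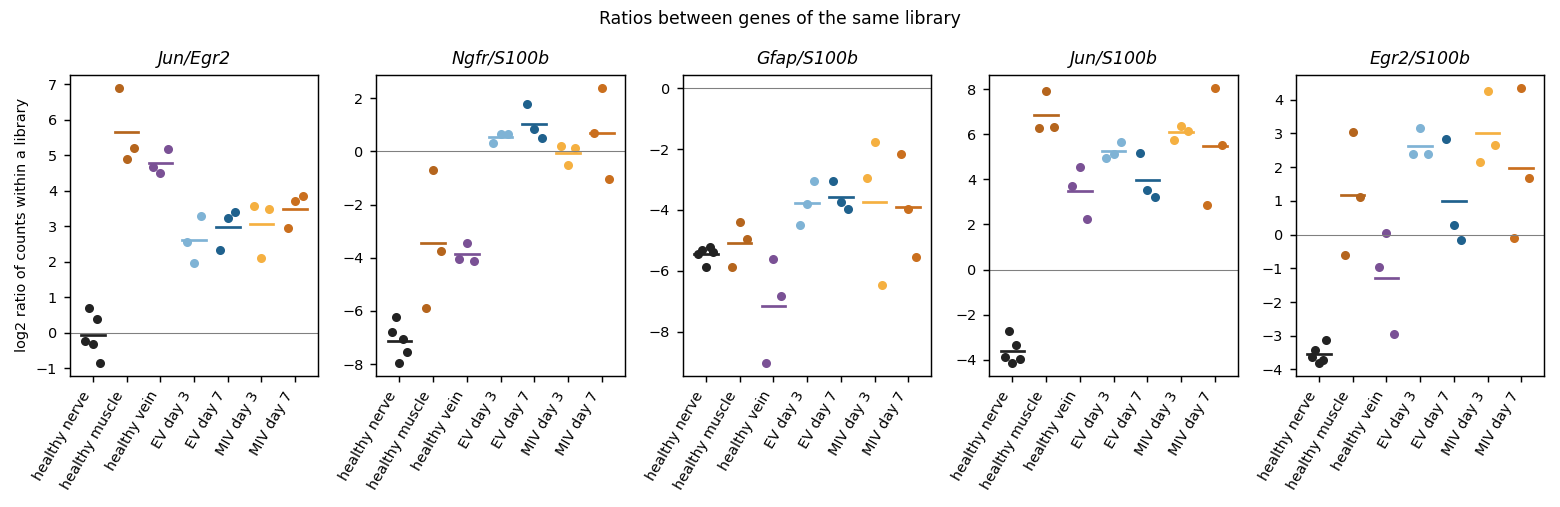
Log2 ratio of the counts of 2 genes within each library, by group (vertical axis; points are libraries, bars are group means). For Jun to Egr2, Ngfr to S100b, Jun to S100b and Egr2 to S100b all 12 repaired libraries lie above the 5 healthy nerve libraries.

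As a description, the pattern of each gene over all 23 libraries was compared with 11800 other genes of at least 10 CPM in some group (Pearson r of log2 CPM, points sharing tissue and group). S100b had 291 genes with an r above 0.9 and Gfap 120, whereas Ngfr and Egr2 had 1 each and Jun none. The nearest to S100b was ENSRNOG00000004392 (r = 0.980) and the nearest to Gfap ENSRNOG00000016828 (r = 0.961), both at their highest in healthy nerve. Among the 5 genes themselves, S100b and Gfap were most alike (r = 0.923) and Jun had an r between -0.30 and -0.13 with each of the other 4.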

How the data were processed

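The labels' protocols name TRIzol extraction, poly-T selection from 350 ng of RNA and a non-directional library, so the strand of a read is unknown. CASAVA and HISAT2 are named in the submitters' processing notes. The counting step, annotation and build: not given in the sources used here. The authors deposited raw counts per gene (whole numbers, not normalized), and all 23 columns matched a library title.

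edgeR 4.0.16 in R 4.3.3 was run with filterByExpr (count minimum 10, total minimum 15), TMM factors, robust glmQLFit and glmQLFTest. Comparisons with healthy tissues used all 23 libraries (15954 genes), and those among repaired nerves used 12 (15036 genes). The square root of edgeR's common dispersion between libraries was 31.4% and 37.1%, part of which may be technical. SE is the log2 fold change divided by the square root of F. Tissue-enriched genes lay over 1 log2 unit above both other healthy tissues with an adjusted p under 0.05. Ratios used counts plus 0.5. Alternatives included DESeq2 1.42.0 and voom in limma 3.58.1. The scripts were tested on simulated data.

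The members and lists were chosen with earlier results of these data known. Named genes are the 5 members and the genes of highest correlation with them, at most 2 identifiers in all. The symbols of the 5 members were given with their identifiers. The reference gene table (47357 rows, 0 with an Ensembl identifier) paired no other identifier with a symbol, so 0 lists fixed by symbol were measured, and promoter sequences were found for 3 members. Deviations of EV and MIV libraries of the same replicate number correlated at 0.209, 0.189 and 0.167 at day 7 and at -0.089, 0.223 and -0.014 at day 3. Libraries of different numbers were not compared in this way, so these values do not show that the numbers pair libraries. The main fits used no block. The block within each day, set at both days, was an alternative only.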

Additional observations from a re-analysis of the deposited data

Results flagged for a closer look

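S100b in healthy nerve replicate 3, at 3391 CPM, lay apart from the other 4 healthy nerve libraries, with a gap of 0.7502 of the group's range against a critical value of 0.71. Of 10 sets of healthy nerve values examined this way, 1 stood out. Chance alone flags about 1 in 20 for each set, so 1 flag among 10 sets is not set apart from chance. The 10 sets also share the same 5 libraries. The change from day 3 to day 7 differed from 0 for Ngfr in EV (3.02 log2 units), S100b in EV (2.35) and Ngfr in MIV (2.53) by edgeR's test of that change.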

How the results depend on the processing

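Of the 40 gene and comparison pairs called, none reversed under any setting and 26 kept their call under all of them, among them S100b, Gfap and Egr2 wherever they were called against healthy nerve. Depth limits Gfap outside healthy nerve, where most libraries held few counts. For every change below the cause was not tested.

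The number of the 5 genes called changed as follows. With the replicate number as a block over all libraries, which the labels do not support, 2 were called for EV day 7 against nerve (4 without the block), 4 for muscle and for vein against nerve (5 each), 1 for MIV day 7 against muscle (2) and 1, Ngfr, for MIV against EV over both days (0). With that block set separately for day 3 and day 7, 1, Ngfr, was called in MIV against EV at day 7 and over both days (0). In that fit the change between days was coded as replicate 3 of day 7 against replicate 1 of day 3. Its 0 calls from day 3 to day 7 in EV (2) and in MIV (1) therefore do not test the change between group means. DESeq2 called 5 for EV day 7 against nerve, 3 from day 3 to day 7 in EV, 2 in MIV from day 3 to day 7, and 1 in MIV against EV at day 7 and over both days. Voom called 5 for EV day 7 against nerve, 3 for EV day 7 against vein (2), 4 for MIV day 7 against vein (2), 3 for MIV day 7 against muscle, 3 from day 3 to day 7 in EV, 1 for MIV day 3 against muscle (2) and 2 in MIV from day 3 to day 7. With only the groups compared, 3 were called for EV day 7 against nerve and 3 from day 3 to day 7 in EV, 0 were called for MIV day 7 against vein, 1 for MIV day 7 against muscle and 0 in MIV from day 3 to day 7. With all 23 libraries, 4 were called from day 3 to day 7 in EV, 2 in MIV, and 1 in MIV against EV over both days. With no filter, 4 were called for muscle and for vein against nerve, and 0 in MIV from day 3 to day 7. With muscle-enriched genes left out of the TMM step, 1 was called for MIV day 3 against muscle. That scaling moved the median of all genes by 0.12 for MIV day 7 and 0.33 for muscle against nerve, and by -0.24 and -0.21 for MIV day 3 and day 7 against muscle. Relative log expression factors changed no count.

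Leaving out 1 library gave 3 to 4 calls for EV day 3, EV day 7 and MIV day 7 against nerve, 4 to 5 for muscle and for vein against nerve, 1 to 2 for EV day 3 and EV day 7 against vein and MIV day 3 against muscle, 1 to 3 for MIV day 7 against vein and against muscle, 0 to 2 from day 3 to day 7 in either series, and 0 to 1 for MIV against EV over both days.

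Uncalled values changed sign. With voom these were 0.041 for Ngfr and -0.39 for Jun (MIV day 7 against nerve), -0.54 for Egr2 (MIV from day 3 to day 7), -0.36 for Gfap and 0.14 for Jun (MIV against EV at day 3) and 0.15 for Ngfr (difference between days). With the replicate block Gfap at day 3 was -0.21, and -0.29 with the block within days. Leaving out 1 library gave, from day 3 to day 7, -0.31 to 1.85 for Egr2 in EV, -1.56 to 2.97 for Gfap and -0.18 to 0.94 for Egr2 in MIV. For MIV against EV it gave -0.83 to 0.63 for Gfap and -0.27 to 0.0048 for Jun at day 3, -0.98 to 0.35 for Jun and -2.11 to 0.040 for Egr2 at day 7, and -2.12 to 0.015 for Gfap and -0.56 to 0.11 for Jun over both days. For the difference between days it gave -1.69 to 0.080 for Ngfr, -4.30 to 0.23 for Gfap, -1.31 to 0.11 for S100b, -0.85 to 0.48 for Jun and -1.73 to 0.43 for Egr2.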
